A study of Rattus norvegicus with 180 samples.

Results

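A microRNA (miRNA) is cut from a hairpin as a duplex of paired strands. An Argonaute protein keeps the guide strand, which then pairs with target mRNAs through its seed, while the passenger strand is usually discarded and decays. In the older naming used on this array, a star after the name marks the strand that was less abundant when the miRNA was catalogued, so that miR-30a* is the other arm of the hairpin that gives miR-30a. The star is a historical label and says nothing of the tissue at hand, and several star strands are known to be loaded and functional in particular tissues.

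The members described here are the 230 star IDs of 240 on a rat miRNA array that lists 717 rat miRNAs. They were taken by name, as all IDs that end in a star, with 10 star IDs left out by number or name (such as miR-9* and miR-126*). For 229 members the array also carries the guide, that is the same ID without the star, and these are 214 distinct guide IDs, because some guides come from 2 gene copies with a star strand each.

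RNA came from 55 organs or tissues of male Sprague-Dawley rats aged 10 weeks, in 2 groups. Rats 4, 5 and 6 were perfused with saline to wash out blood and gave 1 array per organ for all 55. Rats 1, 2 and 3 were not perfused and gave liver, kidney, lung, heart atrium and heart interventricular septum, 15 arrays in all. All rats were untreated, and the intestinal samples were scraped mucosal epithelium, so other layers of the gut wall were not sampled. In whole organs, fewer cells of a type and less RNA per cell cannot be told apart.

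Signal is the mean processed spot intensity of a miRNA's probes, scaled between arrays on the 37 miRNAs found on every array, in arbitrary units. Detection needed more than 50% of the spots used for a miRNA to be called well above background by the scanner software, and a miRNA counts as detected in an organ where all 3 arrays of the perfused rats met this. Probes differ in brightness, so a star to guide ratio is not a ratio of molecules, and the text compares the ratio of 1 pair between organs, where array scaling cancels.

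The arrays differed in strength. Before scaling, the 75th percentile of the 37 miRNAs ran from 68.0 to 6343, and the weakest arrays were the 3 pancreas arrays at 121, 90.5 and 68.0, while arrays of all other organs were at 336 or above. Pancreas signals were therefore multiplied 17.5-, 23.4- and 31.1-fold, against at most 6.30-fold elsewhere, and its lowest detected scaled signals were 115, 224 and 273. Between 86 and 244 miRNAs were detected per array, with a median of 161.5. The labelled organs carried their defining miRNAs: miR-122, the liver miRNA, had a mean of 107094 in liver and at most 10.6 elsewhere, and the pancreatic miR-216a and miR-217 had means of 5773 and 3311 in pancreas. Not every marker kept to its organs. The neural miR-124 reached 10533 in the eyeball, and the leukocyte miR-150 reached 604 in brown adipose tissue, above 545 in the lowest of the leukocyte organs.

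The sequences below are the strands that the results turn on. Each is the mature strand in RefSeq (rat assembly GRCr8), written 5′ to 3′ in lower case with the seed, bases 2 to 8, in capitals. RefSeq gave a star arm for 35 of the 37 detected members looked for by arm name; none is printed for miR-30e* and miR-150*. The widely detected pairs come first, since the ratio is followed over most organs in them.
miR-30a* (miR-30a-3p, chr9:33233987-33234008, plus strand): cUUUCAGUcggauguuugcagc
miR-30a (miR-30a-5p): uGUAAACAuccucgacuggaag
miR-30e (miR-30e-5p): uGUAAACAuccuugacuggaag
miR-29c* (miR-29c-5p, chr13:109099374-109099395, plus strand): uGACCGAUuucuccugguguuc
miR-29c (miR-29c-3p): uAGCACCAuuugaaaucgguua
miR-22* (miR-22-5p, chr10:60805349-60805370, plus strand): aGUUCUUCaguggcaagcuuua
miR-22 (miR-22-3p): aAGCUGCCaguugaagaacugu
miR-181a-1* (miR-181a-1-3p, chr13:52037121-52037142, plus strand): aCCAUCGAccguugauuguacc
The star can be either arm: it is the 3p arm for miR-30a, miR-30c and miR-181a-1 and the 5p arm for miR-29c and miR-22.

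Star strands of 2 gene copies with a shared guide form the next set, because the copies differ in the star arm while their guide is the same molecule.
miR-30c-1* (miR-30c-1-3p, chr5:139634467-139634488, minus strand): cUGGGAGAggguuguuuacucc
miR-30c-2* (miR-30c-2-3p, chr9:33253735-33253756, plus strand): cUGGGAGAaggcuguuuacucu
miR-30c (miR-30c-5p): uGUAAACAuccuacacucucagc
miR-129-1* (miR-129-1-3p, chr4:58589759-58589777, plus strand): aAGCCCUUaccccaaaaag
miR-129-2* (miR-129-2-3p, chr3:100657405-100657426, minus strand): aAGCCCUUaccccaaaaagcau
miR-129 (miR-129-5p): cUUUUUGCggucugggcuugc
miR-7a-1* (miR-7a-1-3p, chr17:6278751-6278772, plus strand): aCAACAAAucacagucugccau
miR-7a-2* (miR-7a-2-3p, chr1:142215856-142215877, plus strand): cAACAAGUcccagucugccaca
miR-7a (miR-7a-5p): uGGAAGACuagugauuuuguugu
The seed UGGGAGA is shared by miR-30c-1* and miR-30c-2*, the seed AGCCCUU by miR-129-1* and miR-129-2*, and the seed AUCUUAC by miR-200a* and miR-200b*, all of them copies or close relatives. No other seed was shared among the 35 detected members with a RefSeq arm.

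The last set holds members of the imprinted miRNA cluster on chromosome 6 whose ratio changed in the sublingual gland.
miR-154* (miR-154-3p, chr6:134574402-134574423, plus strand): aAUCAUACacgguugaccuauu
miR-154 (miR-154-5p): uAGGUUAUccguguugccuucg
miR-411* (miR-411-3p, chr6:134544639-134544658, plus strand): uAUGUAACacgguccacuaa
miR-411 (miR-411-5p): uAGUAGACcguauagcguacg
Over the 35 star arms, the first base was C in 13, A in 11, G in 7 and U in 4, while over the 29 distinct guide arms it was U in 12, A in 8, C in 6 and G in 3. Median GC content was 50.0% for the star arms and 47.8% for the guide arms. These counts describe the detected strands and were not tested.

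Most star strands were not seen in any organ. Of the 230 members, 59 (25.7%) were detected in at least 1 organ, against 170 of the 214 guide IDs (79.4%) and 345 of all 717 miRNAs (48.1%). A further 33 members were seen on an array but in no organ on all 3, and 138 were on none of the 180 arrays. Detected members were found in a median of 5 organs, while the detected guide IDs were found in a median of 28 and all detected miRNAs in a median of 15.

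Breadth fell into a small wide group and a large narrow one. Of the 59 detected members, 10 were found in 1 organ, 22 in 2 to 5, 11 in 6 to 10, 10 in 11 to 22, and none in 23 to 37. The remaining 6 were found in 38 or more organs, namely miR-30e* and miR-30a* (52 organs each), miR-29c* (45), miR-22* and miR-362* (39 each) and miR-378* (38). The map of detected star strands shows these 6 as near unbroken lines above a field of short blocks.

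**Figure D1:**
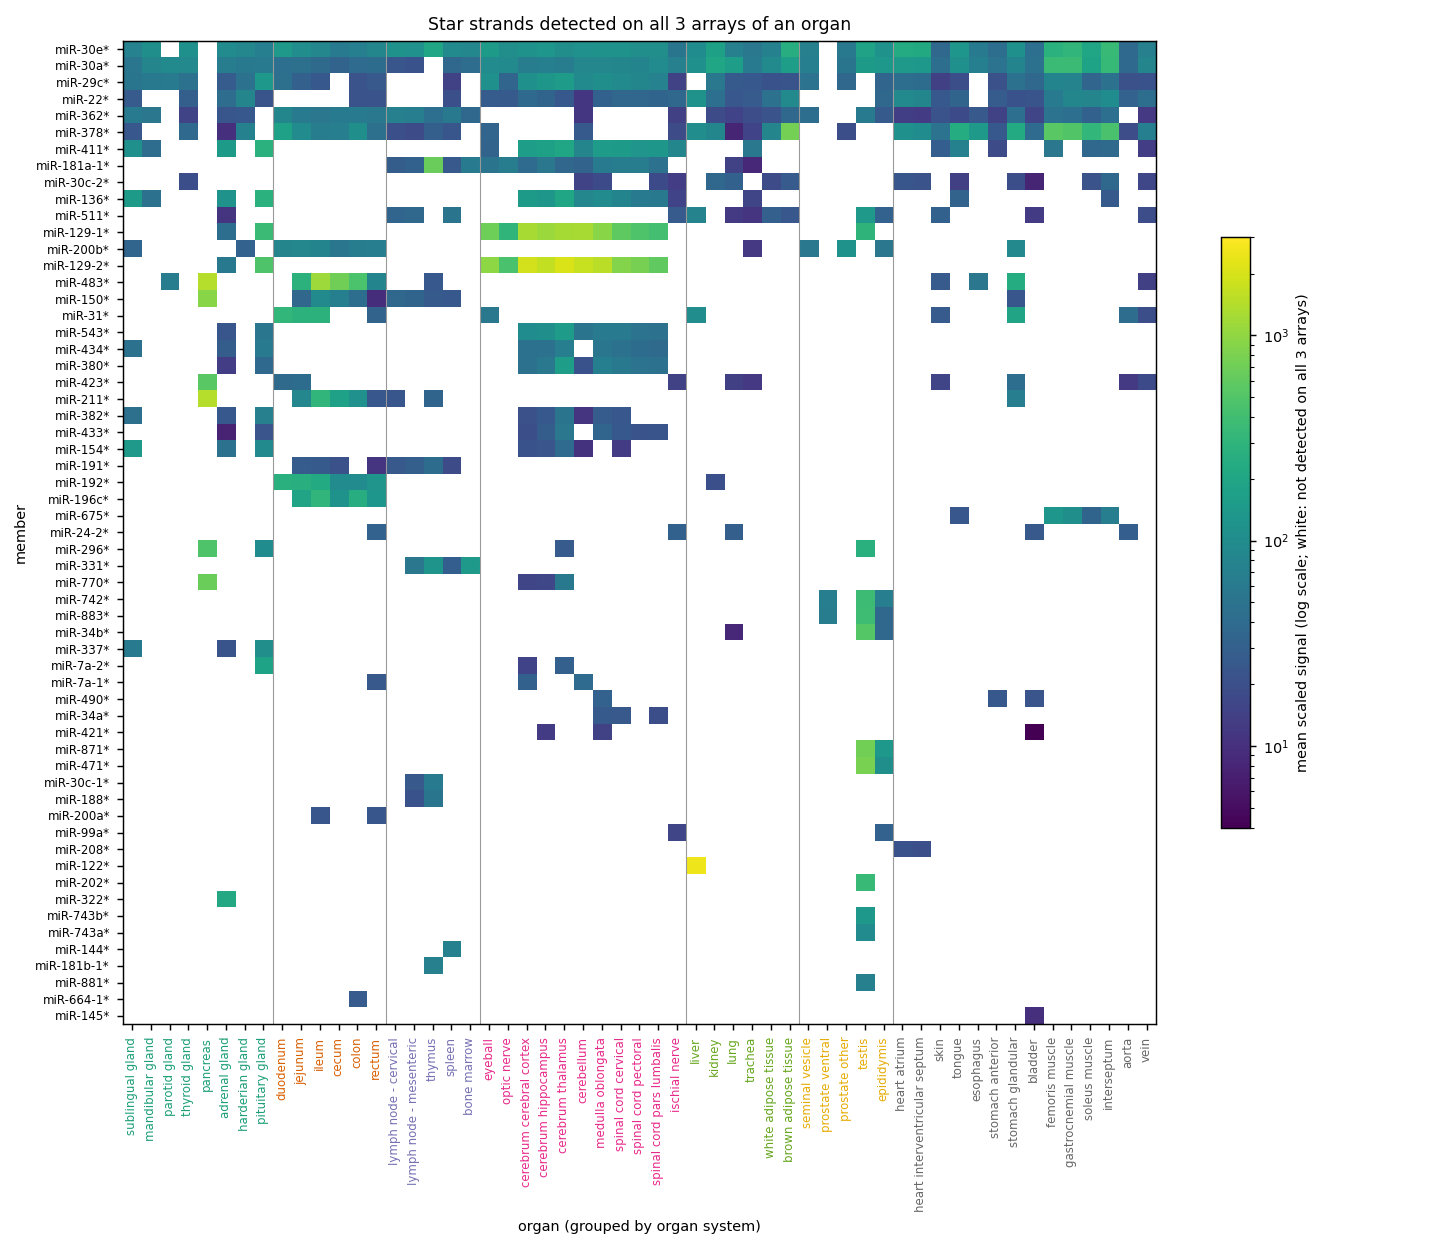
Mean scaled signal (colour, log scale, 3 perfused rats) of the 59 star strands detected in at least 1 of 55 organs, with organs grouped by organ system along the horizontal axis and members ordered by number of organs. White means not detected on all 3 arrays; miR-30e* and miR-30a* fill 52 of 55 organs, while 10 members fill 1.

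Star and guide were compared pair by pair. The guide was detected in some organ for 185 of the 229 pairs, both strands for 44, the star without the guide for 15, the guide without the star for 141, and neither for 29. The array carries some miRNAs under a second ID ending in _v15.0, from an older miRBase release, which was not counted as the guide. Among the pairs counted with the star alone, miR-202 and miR-881 were detected in an organ under such an ID. The star was found in fewer organs than its guide for 176 pairs, in more for 18 and in equally many, above 0, for 6. For 34 pairs the guide was present in all 55 organs, and 26 of those star strands were detected in none.

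**Figure D2:**
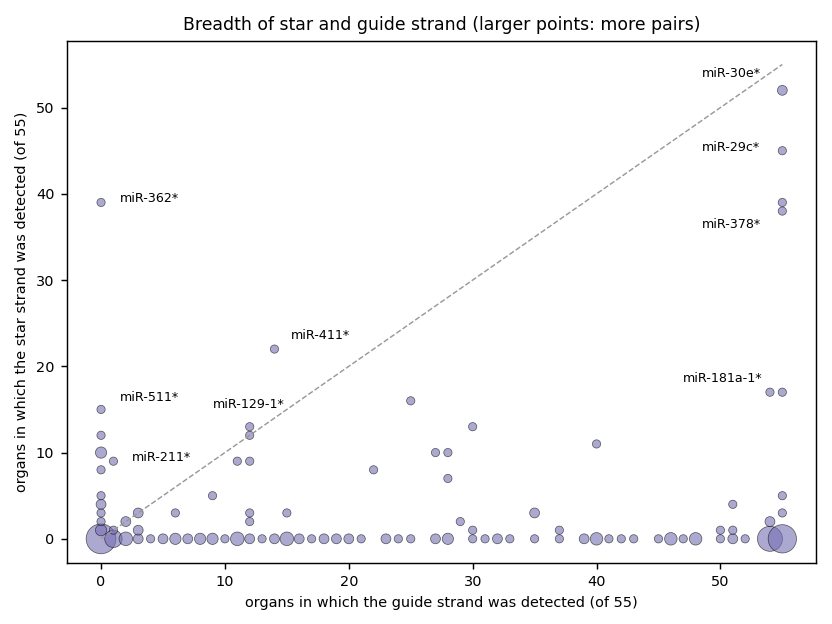
Number of organs with the star strand detected (vertical) against the number with its guide detected (horizontal), of 55 each, for 229 pairs; larger points hold more pairs and the dashed line marks equal breadth. Most points lie on the horizontal axis, 18 pairs lie above the line, and miR-362* stands at 39 organs with its guide in none.

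Where the guide was detected in an organ and the star was on none of its 3 arrays, the guide was set against the lowest signal called there. There were 5045 such combinations of pair and organ, from 174 members, of which 110 were never detected on any array. For these 110, the largest fold of guide signal over lowest called signal was 69.7 for the median member and 5057 for the highest. It was 10 or more for 100 of them and 100 or more for 50. These folds are no lower bounds, since an undetected strand can lie above the lowest called signal. In testis miR-129-2* had 197, 140 and 222 with 1 array detected, while miR-881* was called on all 3 arrays at 65.8, 72.0 and 74.2. Since the probes differ in brightness, the folds are also differences in signal only.

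Detected star strands per organ ran from 2 in the ventral prostate to 19 in the adrenal gland, with a median of 11. They were between 2.0% and 11.0% of all miRNAs detected in the organ, with a median of 7.07%. Brain cortex, thalamus and medulla oblongata had 18 each, hippocampus, cerebellum, rectum and pituitary gland 17 each, and testis 15, while the parotid gland had 3. Organs with more detected miRNAs also had more star strands (Pearson r = 0.863, Spearman rho = 0.878 over 55 organs, as a description, since organs share rats and each array gives both counts). The nervous system held 30 different members over its 11 organs and the reproductive system 20 over 5. Of those 20, 8 were found in no other of the 7 systems that the study defined. The same count over all miRNAs is not given, and whether this is particular to star strands was not tested. Nervous tissue had 1 member of its own, a count that depends on the grouping, as the study placed pituitary and adrenal gland with the glands. Outside nervous organs, miR-380*, miR-433* and miR-543* were detected in those glands only.

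Except for miR-362*, the members found in 38 or more organs have a guide that was detected in all 55. miR-30e* and miR-30a* come from hairpins of the miR-30 family, whose guide strands share 1 seed. In the interseptum, which the study placed with the muscles, miR-30e* had signals of 400, 275 and 362 in rats 4, 5 and 6. In skin it had 42.7, 29.0 and 37.8, so its highest and lowest organs were far apart in every rat. miR-30a* ran from 307, 325 and 464 in femoris muscle down to 20.9, 23.4 and 20.1 in the mesenteric lymph node.

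miR-29c* comes from the miR-29 family, known for targeting collagen mRNAs. Its signals were 164, 157 and 147 in thalamus and 15.9, 11.5 and 14.2 in skin. miR-22* was highest in liver at 93.5, 103 and 150 and, among organs where it was detected, lowest in cerebellum at 13.0, 10.9 and 10.4. In both, the 3 rats of the high organ lay well above the 3 rats of the low one.

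miR-378*, from a hairpin inside the gene of the metabolic coactivator PGC-1beta in other mammals, was brightest in brown adipose tissue at 814, 755 and 682. Among the 38 organs where it was detected, it was dimmest in lung at 8.02, 8.37 and 7.48. miR-411*, miR-136*, miR-181a-1*, miR-30c-2*, miR-511* and miR-129-1* completed the 12 most widely detected, in 22, 16, 17, 17, 15 and 13 organs, with the last place taken by signal from miR-200b*, also in 13.

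The level of 58 of the 59 detected members differed between organs (limma F test, adjusted p under 0.05), where 99.7% of all 345 miRNAs tested did. A member entered this test through an organ where it was bright, so the count describes the atlas and not the star strands. The exception was miR-145*, detected on all 3 arrays in bladder only, at 11.4, 12.6 and 5.62 (adjusted p = 0.84). The test raised signals under the floor of 10.8 to it, so a strand this dim could hardly pass. Under normexp background correction and with the authors' normalized table, 59 of 59 members differed, so the exception does not show an even level. The guide miR-145, a smooth muscle miRNA, was detected in bladder too.

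Among the 591 combinations of a star strand and an organ in which it was detected, the guide was on all 3 arrays in 442, on 1 or 2 arrays in 17 and on none in 132. In the 442, the star was the brighter strand in 44. Over the 43 pairs with both strands in some organ, the median star signal was 17.3% of the guide signal, from 0.347% for miR-200a* to 503% for miR-129-2*. Across organs, star and guide levels moved together: over the 14 pairs with 10 or more shared organs, Pearson r of the log2 organ means lay between 0.717 (miR-30e*, 52 organs) and 0.979 (miR-129-1*, 12 organs), with a median of 0.928. These r describe organs that share rats, arrays and scaling.

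The star to guide ratio of a pair was still not the same in every organ. It could be tested for 35 members with both strands in at least 2 organs, and 30 differed between organs (limma F test, adjusted p under 0.05), beside 82.7% of all 52 strand pairs tested. The 5 that did not pass were miR-471*, miR-24-2*, miR-192*, miR-208* and miR-34a*. Among pairs measured in 10 or more organs, the spread between the lowest and highest organ mean was largest for miR-29c* (2.24 on the log2 scale), miR-30e* (2.22), miR-378* (1.98), miR-30a* (1.82) and miR-434* (1.77), and it was 1.57 for miR-31* and miR-411*, 1.48 for miR-22*, 1.43 for miR-181a-1* and 1.36 for miR-136*. The order of these spreads changed with the processing: under normexp miR-22* came first at 2.02 and miR-411* fell to 0.94, and miR-434* went to 0.44 with all spots well above background and to 5.22 with undetected strands kept.

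miR-30e* lay between 13.0% of its guide in rectum and 60.7% in optic nerve. The log2 ratios of rats 4, 5 and 6 were -0.82, -0.78 and -0.57 in optic nerve, which was the highest organ in all 3 rats. They were -2.54, -3.17 and -3.11 in rectum, the lowest organ in 2 of 3. The optic nerve lay 1.13 above the mean of the other 51 organs (SE 0.09, limma, adjusted p = 3.76e-20) and the rectum 1.13 below it (adjusted p = 3.76e-20). The guide had organ means of 177 in optic nerve and 641 in rectum, while the star had 107 and 83.4, so the guide was the higher in rectum and the star the higher in optic nerve. The optic nerve call was lost in 1 of 16 other settings, normexp background correction, and the rectum call in 1, without rat 6.

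The ratio of miR-30e* is given here by organ system, and no test of that grouping was run. Over the 11 organs of the nervous system, the organ means of the log2 ratio of miR-30e* lay between -1.76 and -0.72, with a mean of -1.14. The 6 intestinal samples lay between -2.94 and -2.55, and the 5 lymphoid or hematopoietic organs between -2.56 and -2.34. Muscle spanned -2.80 to -0.93 over 14 organs and the 4 reproductive organs -2.32 to -0.93, so these 2 systems covered most of the range. The 6 glands lay between -2.31 and -1.47 and the 6 other organs between -2.38 and -1.52. miR-30a* also had its highest ratio in the optic nerve, 23.7% of guide. Its lowest was in the parotid gland, 6.72%, with log2 ratios of -3.51, -4.11 and -4.07, 1.04 below the other organs (limma, adjusted p = 7.62e-18). That call was lost in 4 of 15 other settings, among them without rat 5 and without rat 6, and the difference turned to 0.26 under normexp.

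**Figure D3:**
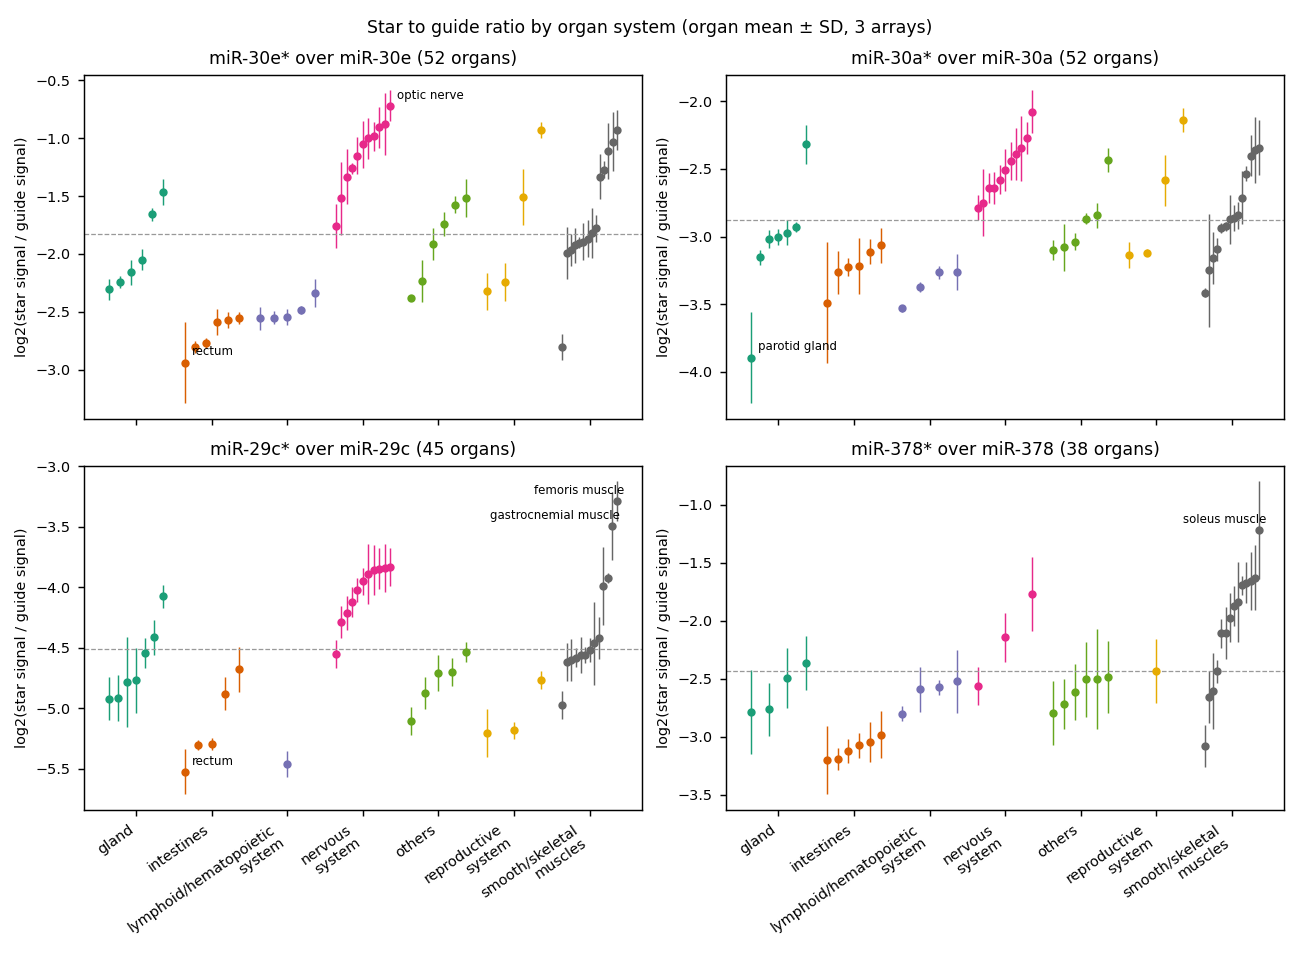
Log2 of star over guide signal (vertical) for miR-30e*, miR-30a*, miR-29c* and miR-378*, each point an organ mean with the SD of 3 arrays, arranged by organ system and coloured by it; the dashed line is the mean over organs and organs past the test are named. For miR-30e* the 6 intestinal samples lie below -2.5 and the 11 nervous organs above -1.8.

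miR-29c* was 2.17% of its guide in rectum and 10.2% in femoris muscle. The log2 ratios were -3.24, -3.47 and -3.15 in femoris muscle, 1.25 above the other 44 organs (SE 0.10, limma, adjusted p = 8.95e-20). The gastrocnemial muscle, at -3.81, -3.36 and -3.31, was 1.04 above (adjusted p = 8.88e-16), and the rectum, at -5.31, -5.65 and -5.61, was 1.04 below (adjusted p = 1.07e-15). The rectum call was lost in 7 of 15 other settings, among them without rat 5 and without rat 6, and the gastrocnemial call in 5 of 16, since both differences lie close to the 1 unit that a call needs. The femoris call was kept in all 16.

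miR-378* was high against its guide in the soleus, a slow muscle. Its log2 ratios in soleus were -1.67, -1.16 and -0.83, 1.25 above the other 37 organs (limma, adjusted p = 3.99e-12), where the star signal was 43.0% of the guide signal; this call was lost in 1 of 16 settings, normexp. In ileum it was 10.9%, the lowest organ mean, and all 6 intestinal samples lay between -3.20 and -2.98. Brown adipose tissue had the highest star signal, with a guide mean of 5200 against 791 in soleus. The heart lay near soleus, with log2 ratios of -1.44, -1.61 and -1.93 in atrium and -1.41, -1.53 and -1.94 in septum (rats 4, 5 and 6). Of the 111 arrays of other organs, 8 lay above the lowest soleus array.

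miR-181a-1* comes with miR-181a, which is high in developing T cells. Star signals in thymus were 625, 704 and 635, while the mesenteric lymph node had 26.1, 36.4 and 32.4 and the spleen 30.2, 24.7 and 21.5. The thymus stood far above the other lymphoid organs in every rat. Its ratio to the guide was also the highest of 17 organs in 3 of 3 rats, at 6.29%, and that of the cerebellum, 2.34%, the lowest in 3 of 3. Neither organ lay 1 log2 unit from the rest, so neither was called.

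For contrasts of 1 organ against the mean of the others, 392 tests were made on 20 members with 5 or more organs. Of these, 21 (5.36%) were called, 10 higher and 11 lower, in 11 members and 17 organs. Over all strand pairs 8.81% of 704 tests were called, 4.4% in each direction, so the members were not above the background. Their share was below the 18.0% of the other star IDs and below the 7.59% of pairs named 5p and 3p, and these differences were not tested. Without rat 6, 7 calls were lost as their differences fell under 1 log2 unit, with adjusted p still under 0.05: -0.63 for miR-31* in aorta (arrays at -2.72, -2.67 and -3.49), -0.95 for miR-411* in sublingual gland, -0.95 for miR-433* in pituitary gland, -0.87 for miR-154* in cerebellum, where the star had a mean signal of 10.5, -0.996 for miR-30e* in rectum, -0.93 for miR-29c* in rectum and -0.94 for miR-30a* in parotid gland. The aorta difference was the 1 of these that moved by over 1.5 times. Without rat 5 the difference of miR-150* in thymus stayed at -1.11, with an adjusted p of 0.12. Under normexp that difference was -0.07 and the difference of miR-154* in cerebellum was -0.41, and both calls were lost. With the slide as a random block, 18 of the 21 calls remained, and miR-29c* in rectum (-0.96), miR-31* in aorta (-0.995) and miR-433* in pituitary gland (-0.98) fell just under the cutoff. The call for miR-433* was kept in 5 of 14 other settings and that for miR-31* in 11 of 15.

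**Figure D4:**
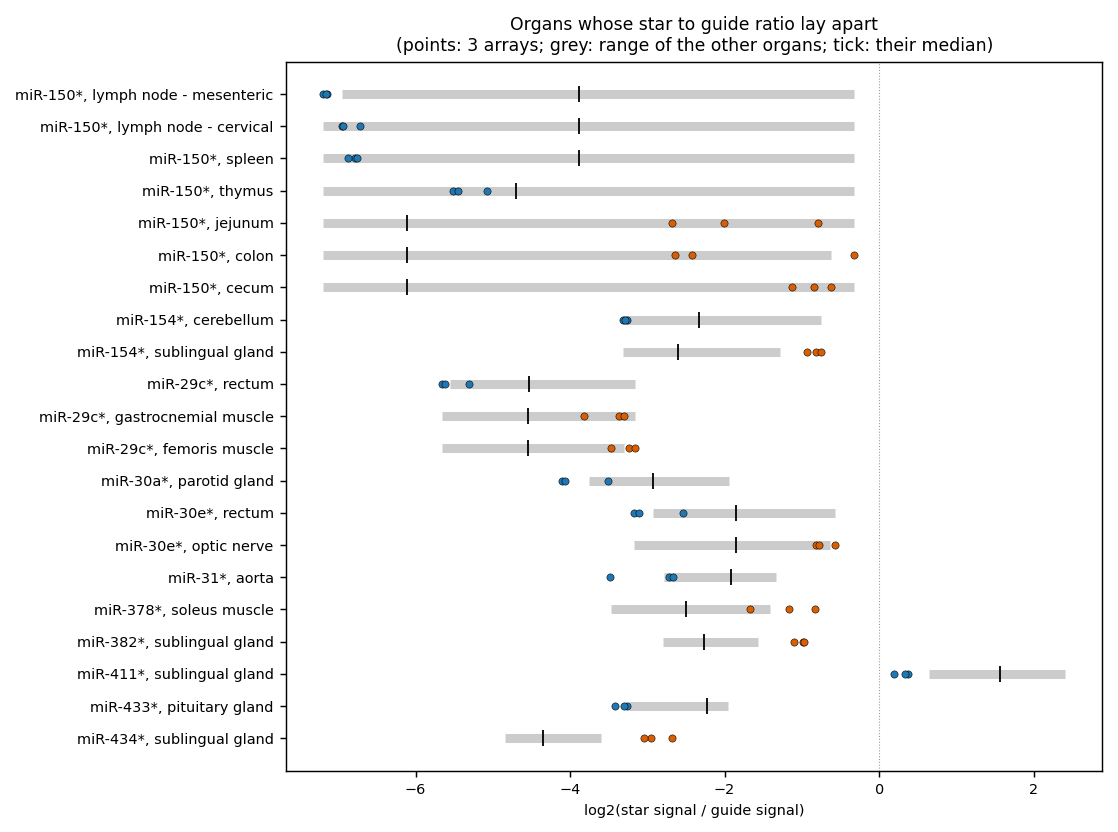
Log2 of star over guide signal (horizontal) for the 21 called combinations of member and organ, with 3 points for the 3 arrays, a grey bar for the range over arrays of the other organs and a tick for their median; orange is higher and blue lower. miR-150* spans the widest range, from about -7.2 in mesenteric lymph node to -0.32 in 1 colon array.

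miR-150 is a lymphocyte miRNA, and its pair gave 7 of the 21 calls, 1 in each of the 7 organs tested. Organ means of the log2 ratio lay at -1.83 to -0.87 in the gut samples and at -7.17 to -5.35 in the lymphoid organs. Each organ was set against the mean of the others, so these calls reflect 1 split and are not independent. The ratios of miR-150* were -7.14, -7.19 and -7.16 in mesenteric lymph node, 3.25 below the other organs (limma, adjusted p = 5.36e-07), and -6.78, -6.87 and -6.76 in spleen, 2.83 below (adjusted p = 2.93e-06). They were -1.13, -0.63 and -0.85 in cecum, 4.10 above or 17.1-fold (adjusted p = 2.56e-08). Over the 7 organs with both strands, the star means ran from 25.0 in spleen to 70.0 in cecum, while the guide means covered a wider range, from 123 in jejunum to 4899 in mesenteric lymph node. The call in cecum, jejunum, colon, spleen and both lymph nodes was kept in all 14 other settings. That in thymus was kept in 12, and it was lost without rat 5 and under normexp, where the difference was -0.07. The thymus was not an extreme of this pair, since 9 of the 18 arrays of the other organs lay below it. In jejunum the difference fell from 2.98 to 1.69 without rat 4, and in colon from 3.02 to 1.70 without rat 6. With undetected strands kept the differences were smallest, at 2.36 in cecum, 1.38 in jejunum and 1.42 in colon.

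Outside the organs with its guide, miR-150* was bright in pancreas at 628, 1034 and 1112, where miR-150 was on none of the 3 arrays. miR-483*, from an intron of the insulin-like growth factor 2 gene, had 895, 1839 and 1582 in pancreas and 2269, 563 and 539 in ileum, with its guide on 1 and 0 arrays. miR-211* had 702, 2064 and 1569 in pancreas and 557, 232 and 139 in ileum, and miR-423* had 404, 711 and 531 in pancreas, both without the guide on any array there. In all of them rat 4 was the lowest of the pancreas arrays, and in ileum rat 4 was the highest for the 2 named there. All 6 members detected in pancreas lacked a detected guide. The pancreas arrays were the ones scaled 17.5-fold and more, and the part of that scaling in these levels was not tested. The ileum arrays had percentiles of 980, 923 and 1189 before scaling, below the median of 1828 for arrays outside pancreas.

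The imprinted cluster on chromosome 6 (GRCr8, positions 134298084 to 134574435, 276 kb) holds the hairpins of 10 detected members: miR-136*, miR-154*, miR-337*, miR-380*, miR-382*, miR-411*, miR-433*, miR-434*, miR-543* and miR-770*. In mammals the cluster is expressed from the maternal chromosome and is known for its activity in brain and pituitary. Its members were detected over 23 organs together, and 9 of the 10 in at least 3 organs of the nervous system, miR-337* being the exception. In the pituitary gland, miR-411* had signals of 246, 283 and 302 and miR-136* had 291, 274 and 262.

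The sublingual salivary gland also expressed part of the cluster. miR-154* was brighter there than in any other organ, at 134, 122 and 162, and miR-136* reached 173, 132 and 140. Signals of miR-411* were 115, 105 and 115, those of miR-337* 60.6, 62.9 and 60.0, those of miR-434* 57.0, 44.5 and 45.7 and those of miR-382* 47.3, 42.0 and 48.2. By contrast miR-433* and miR-770* were on none of its 3 arrays, miR-380* on 1 and miR-543* on 2. Of the 10 star strands, 6 were detected in this gland and 4 were not.

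In the sublingual gland 4 pairs of the cluster had a called ratio, in both directions. miR-154* had log2 ratios of -0.82, -0.93 and -0.76, 1.68 above the other 7 organs (SE 0.11, limma, adjusted p = 5.74e-11). miR-434* had -2.68, -2.95 and -3.04, 1.45 above (adjusted p = 3.78e-13), and miR-382* had -0.99, -0.98 and -1.10, 1.21 above (adjusted p = 5.25e-07). In these 3 pairs every sublingual array lay above every array of the other organs. The ratio of miR-411* went the other way, with 0.37, 0.19 and 0.34, 1.16 below the other 13 organs (adjusted p = 1.51e-07), and every sublingual array lay below the others. When arrays with an undetected strand were kept, the differences of miR-154*, miR-382* and miR-434* turned to -0.05, -0.48 and -1.09, and that of miR-411* shrank to -0.23. The calls for miR-154* and miR-382* were also lost under normexp. That for miR-411* was lost in 4 of 16 settings, among them normexp, undetected strands kept and without rat 6.

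Some star strands were bright in very few organs. miR-122* belongs to the liver miRNA miR-122, a regulator of hepatic lipid metabolism. It had signals of 2109, 1957 and 3615 in liver, 2.30% of its guide, and was on no array of the other 54 organs. Its liver signal was 12.9 times the lowest signal called in the organ where that fold was smallest, and 232 times at the median organ. As for the guides above, these folds are no lower bounds.

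A group of testis strands came from the X chromosome. miR-471* had 819, 698 and 884 in testis and 117, 64.1 and 146 in epididymis, and miR-871* had 691, 730 and 761 and 131, 93.9 and 187. Signals of miR-883* were 358, 346 and 434 in testis and those of miR-742* 356, 334 and 419. The epididymis, which stores sperm from the testis, was the lower of the 2 organs for each of the 4 in every rat. The ratio of miR-471* to its guide was 94.3% in testis and 82.9% in epididymis and was among those that did not pass the test over organs, while those of miR-742* and miR-883* did, at 72.0% and 39.7% in testis against 25.6% and 19.3% in ventral prostate.

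The ventral prostate is a gland without germ cells, and its 2 detected star strands were miR-883* and miR-742*. Their signals were 76.5, 36.6 and 81.6 for miR-883* and 79.0, 37.4 and 87.1 for miR-742*, with rat 5 lowest in both. Their guides were there too, at 423, 199 and 377 for miR-883 and 314, 142 and 345 for miR-742, again lowest in rat 5. In contrast miR-471* had 2.90, 3.98 and 10.2 there and was on no array, and neither were miR-871* and miR-881*. Between these lay miR-743b*, at 68.6, 33.2 and 52.8 on 2 of 3 arrays with its guide at 582, 206 and 695 on all 3, and miR-743a*, on 1 array. The testis marker miR-34c had a mean of 39.4 in ventral prostate, on 2 of 3 arrays, against 14072 in testis and 421 in epididymis. Whether RNA of another organ contributed to these signals was not tested.

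Further testis strands were dimmer or lie on other chromosomes. miR-34b*, of the miR-34 family known from germ cells and ciliated cells, had 629, 446 and 504 in testis and was also detected in epididymis and lung. miR-202*, known from gonads, had 319, 317 and 398 in testis and was seen on some but not all arrays of 7 other organs. Its guide was undetected under the ID miR-202, while the second ID miR-202_v15.0 was detected in an organ. miR-743b* and miR-881*, also on X, and miR-743a* were detected on all 3 arrays in testis only, at means of 96.7 for miR-743a*, 137 for miR-743b* and 70.7 for miR-881*.

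Other narrow strands were found in gut, heart, adrenal gland and muscle. miR-192*, of an intestinal epithelial miRNA, was detected in all 6 intestinal samples and kidney, and its ratio lay between 0.968% in rectum and 1.23% in cecum without passing the test. miR-196c* had 340, 453 and 137 in ileum and was also in jejunum, cecum, colon and rectum. miR-208*, encoded in a myosin heavy chain gene, was detected in atrium and septum, at 87.5% and 92.8% of the signal of the ID miR-208. The second ID of this guide, miR-208_v15.0, was also detected in an organ and was not used for the ratio. The paper lists a higher maximum signal for that ID than for miR-208, so the percentages depend on the ID taken as guide. miR-322* had 216, 254 and 180 in adrenal gland, the only organ with the star on 3 arrays, though its guide was detected in 51 organs. miR-675* had 134, 136 and 117 in femoris muscle, and its guide was detected in no organ.

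miR-296* and miR-770* had their highest values in pancreas. miR-296* had 245, 586 and 618 there, 279, 244 and 270 in testis and 94.5, 98.7 and 104 in pituitary gland. miR-770* had 543, 495 and 987 in pancreas and 70.0, 59.9 and 44.8 in thalamus. The guide of neither was detected in any of these organs, and the scaling of the pancreas arrays given above touches both.

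For 18 pairs the star strand was found in more organs than the guide, and in several it was the brighter signal. miR-362*, from an X-linked hairpin, was found in 39 organs and its guide in none. In duodenum, its brightest organ, the star had 89.9, 88.0 and 72.1 and the guide a mean of 20.6 that was called on no array. miR-511*, from an intron of the macrophage mannose receptor gene, was found in 15 organs with its guide in none, with 128, 148 and 148 in testis, 75.9, 79.8 and 74.2 in liver and 57.8, 44.2 and 49.6 in spleen.

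miR-411* exceeded its guide in signal in all 14 organs with both strands, between 123% in sublingual gland and 365% in lumbar spinal cord. miR-129-1* and miR-129-2* exceeded miR-129 in all 12 organs they share with it, most of them parts of the central nervous system. The other members brighter than their guide on average were miR-188* (129% in thymus), miR-331* (215% in bone marrow, brighter in 3 of 4 organs), miR-490* (151% in medulla oblongata, brighter in 1 of 3) and miR-664-1* (140% in colon). Since the probes differ in brightness, a value above 100% does not show more molecules of the star strand.

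The 19 bases of miR-129-1-3p are identical to the first 19 of the 22 bases of miR-129-2-3p. Whether RNA of 1 copy binds the probes of both was not tested, and the probe sequences were not used here. In cortex miR-129-1* had 1324, 1184 and 1242 and miR-129-2* had 1886, 2039 and 1729. Their log2 ratio lay between -0.73 and -0.39 over the 12 shared organs, with a median of -0.60. In testis, which is not among them, miR-129-1* had 330, 213 and 347, detected on 3 arrays, and miR-129-2* had 197, 140 and 222, detected on 1.

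The star strands of miR-30c differ at 3 of 22 bases, and no organ had both on all 3 arrays. miR-30c-1*, from chromosome 5, was detected in thymus at 67.3, 61.6 and 48.2 and in mesenteric lymph node at 20.9, 28.1 and 26.9. miR-30c-2*, from chromosome 9, was detected in 17 organs, among them interseptum at 41.0, 30.8 and 38.4 and kidney at 40.3, 32.9 and 35.7. The shared guide was 814 in thymus and 1853 in interseptum, as means. Below the rule of 3 arrays the division was less sharp. miR-30c-1* had 83.8, 28.9 and 95.9 in bone marrow, detected on 2 of 3 arrays, and in spleen each of the copies was detected on 1 array. Thyroid gland, tongue, glandular stomach and bladder were also among the 17 organs of miR-30c-2*.

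The miR-7a copies had their highest signals in different organs. miR-7a is known as an abundant pituitary miRNA. miR-7a-2*, from chromosome 1, had 173, 198 and 194 in pituitary gland and 35.1, 31.0 and 26.4 in thalamus. miR-7a-1*, from chromosome 17, had 13.3, 18.0 and 13.1 in pituitary gland, detected on 1 of 3 arrays, and 41.2, 35.1 and 43.7 in cerebellum. It was also detected in rectum, at 30.1, 21.6 and 25.0. Its means of 33.9 in cervical lymph node, 32.7 in mesenteric lymph node and 32.7 in thymus were not far below cerebellum. In these 3 organs it was on 1 or 2 arrays. In the cortex, the 1 organ with both, miR-7a-1* had 36.2, 26.0 and 31.7 and miR-7a-2* had 17.8, 10.6 and 17.2. With the best alignment the star arms match at 18 of 21 bases.

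Against the shared guide, miR-7a-1* made up 52.5% in cerebellum, where the guide mean was 76.1, and 9.61% in cortex. miR-7a-2* made up 0.862% in pituitary gland, where the guide mean was 21840, and 4.59% in cortex. A guide shared by 2 copies is the sum of both, so neither ratio is that of 1 hairpin.

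**Figure D5:**
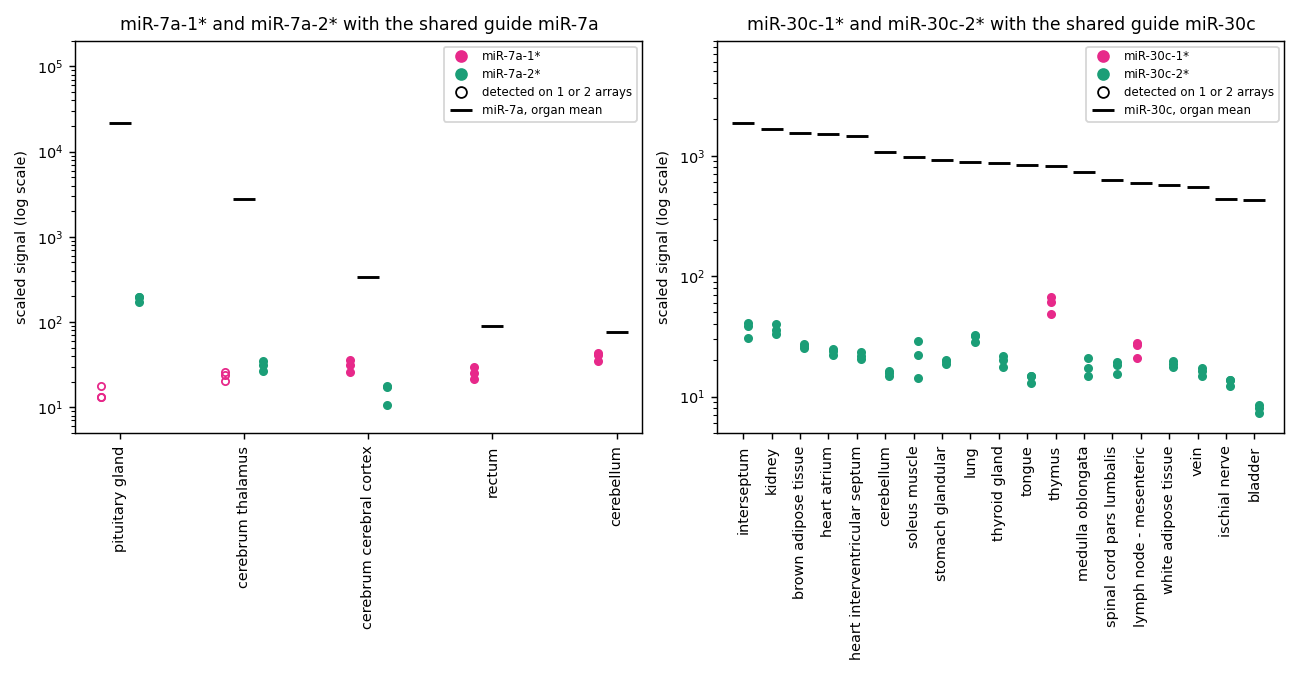
Scaled signal (vertical, log scale) of the star strands of miR-7a (left) and miR-30c (right) by organ, with 3 points per strand for 3 perfused rats, open where the strand was detected on 1 or 2 arrays, and a black bar for the mean of the shared guide. Across organs, miR-7a-2* is highest in pituitary gland and miR-7a-1* in cerebellum, and miR-30c-1* has points in thymus and mesenteric lymph node, where miR-30c-2* has none.

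Perfusion was compared in 5 organs to ask whether blood left in the organ adds to the signal. Detected star strands in perfused and not perfused rats numbered 7 and 7 in liver, 8 and 7 in kidney, 12 and 14 in lung, 8 and 8 in atrium and 8 and 8 in septum. Every member found in the smaller set of an organ was also in the larger. Of 18 members tested for level among 191 miRNAs, 0 were called by limma in any organ, where the background was 0% in each. The test raised signals under the floor of 10.8 to it, so members at the floor in both groups could not be called. In liver these were miR-144*, miR-181a-1*, miR-208*, miR-24-2*, miR-322* and miR-34b*, and each of the other organs had such members too. The lowest adjusted p-values were 0.447 in liver and 0.187 in lung, and at an unadjusted p under 0.05 there were 2 members in liver, 1 in lung and 0 in the other 3 organs.

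miR-144* is the star of a red blood cell miRNA and was followed separately, chosen after its values were seen. In the not perfused rats 1, 2 and 3 it was detected on 3 of 3 lung arrays, 1 atrium array and 1 septum array, and in the perfused rats on 1 lung array. Its signals in atrium were 3.34, 9.48 and 12.6 without perfusion and 1.82, 1.69 and 1.62 with it, and in septum 3.21, 6.99 and 10.2 against 2.02, 0.97 and 1.45. In kidney, where it was on no array, the values were 2.34, 3.61 and 3.17 against 2.33, 0.42 and 1.53. In these 3 organs all 3 perfused rats lay below all 3 others, in kidney by a narrow margin. In lung the values were 5.97, 7.41 and 8.26 without perfusion and 0.68, 5.67 and 12.1 with it, so the groups overlapped, as they did in liver, at 5.18, 10.1 and 6.77 against 5.77, 3.64 and 5.66. The guide miR-144 had 19.4, 24.0 and 40.4 in liver without perfusion and 9.23, 3.85 and 8.61 with it, apart in all 3 rats but called on no array. Most of these star signals lie under the floor of 10.8, to which the level test raised them, and the test gave adjusted p = 1 in each of the 5 organs.

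The strand ratio gave 1 call. In liver, miR-30e* had log2 ratios of -2.46, -2.09 and -2.07 without perfusion and -1.67, -1.86 and -1.70 with it, a difference of 0.47 (SE 0.14, limma, adjusted p = 0.0233). All 3 perfused rats lay above all 3 others. Over all pairs, 11.1% of 9 were called in liver, 5.56% of 18 in lung and 0% in the other organs, and members tested numbered 6 in liver, 9 in lung, 7 in septum, 6 in atrium and 6 in kidney. The call was lost without rat 1 and without rat 4, with the slide as a random block, under normexp and with the scanner's own detection call. The effect of perfusion was not shown to differ between organs for any member: of 18 members tested for level and 6 for ratio, 0 passed in limma, and 0 of each at an unadjusted p under 0.05.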

How the data were processed

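Total RNA of 55 organs was hybridised to 1-colour Agilent rat miRNA arrays (14340 spots, no spot saturated, 1.63% to 6.42% outlier flags, left out). The deposited scanner files hold spot intensity that the authors obtained with Agilent Feature Extraction 10.7.3; the processed signal is background-corrected, and detection rests on the flag for spots well above background. A normalized signal table deposited by the authors, scaled to a 75th percentile, was used as an alternative only; it has no row for let-7e* here.

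Spots of a miRNA were averaged and scaled to the 75th percentile of 37 miRNAs detected on all arrays. For level tests, log2 values below the floor of 10.8 were set to it. limma 3.58.1 (R 4.3.3) fitted 1 term per organ on the perfused arrays, with Benjamini-Hochberg adjustment over all miRNAs (345) or all strand pairs (52). An organ contrast was called at an adjusted p under 0.05 and a log2 difference of at least 1, for pairs with 5 or more organs. On simulated data for these contrasts over the 52 pairs, 4 of 5 planted log2 differences of 1.5, 5 of 5 of 2 and 5 of 5 of 3 were recovered. Smaller differences, where most calls outside miR-150* lie, were not planted, so recovery at their size was not measured. The simulated arrays were independent, while real arrays shared slides. Named members were the 12 most widely detected, the 10 with the largest ratio range over 10 or more organs, the 10 brightest of those in 1 to 5 organs, gene copies with a shared guide, and members brighter than their guide; others are named from a count or a contrast. Members and lists were chosen with earlier results of these data known.

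Rat numbers pair organs because they are the same animal: deviations of log2 levels from organ means correlated at 0.0496 within a rat (0.0332, 0.0611 and 0.0544 for rats 4, 5 and 6) and at -0.0246 between rats. For 8 arrays the labels give 2 rat numbers, and the title was followed. Arrays lay on 23 slides, scanned on 3 days, with each organ on 3 slides; the slide was tested as a random block (correlation 0.46). Alternatives were background correction by normexp on the median spot signal, since no mean signal column is used here, other summaries, scalings, floors and detection rules, and each rat left out. RefSeq sequences and positions are of GRCr8, and arm names were assigned to star names by hand; the number of arrays limits the precision.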

Additional observations from a re-analysis of the deposited data

How the results depend on the processing

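The main counts were 59 members detected, 58 with a level and 30 with a ratio that differed between organs, and 21 called organ contrasts. The scanner's own detection call per miRNA gave 115, 96, 71 and 122, with more members tested. Asking for all spots well above background gave 42 detected, 42 levels, 19 ratios and 12 contrasts, and asking for both strands at 4 times the floor or more gave 18 ratios and 7 contrasts, with fewer members tested. Keeping undetected strands gave 516 contrasts. With each rat left out in turn, 61 to 69 members were detected, 59 to 66 levels and 27 to 30 ratios differed and 20 to 27 contrasts were called. With the rat as a replicate block the counts were 58, 29 and 21, and with a slide block 58, 32 and 18. Perfusion changed 1 level with the authors' table and 0 to 1 with a rat left out. It changed 0 ratios under normexp, the scanner's call or a slide block and 0 to 2 with a rat left out. The median r of star and guide over organs was 0.841 under normexp and 0.868 after quantile normalization, against 0.928; these 2 settings, like the scanner total for this value, were chosen after seeing the data. The cause of these shifts was not tested. Pancreas had the weakest arrays before scaling, and how far weak arrays limited detection was not tested.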
